A study of Homo sapiens with 6 samples.

Results

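Glycolysis splits glucose into pyruvate in the cytosol, and many tumour cells then reduce the pyruvate to lactate and export it even when oxygen is present. The 10 genes described here follow that route from uptake to export: SLC2A1 (GLUT1, the main glucose uptake carrier of most cultured cells), HK2 (hexokinase 2, which traps glucose as its phosphate), PFKP (the platelet form of phosphofructokinase, the committing step), ALDOA (aldolase A), GAPDH, PGK1 (phosphoglycerate kinase, the first step that yields ATP), ENO1 (enolase), PKM (pyruvate kinase), LDHA (the lactate dehydrogenase subunit that favours lactate formation) and SLC16A3 (MCT4, a lactate exporter). The rule that picked them used gene symbols and no measured value, but they were chosen with earlier results of these data known. All 10 were found among the 51103 genes of the deposited tables. HIF-1, the oxygen-sensing transcription factor, and MYC are known activators of several of them, and in gastric tumours high expression of the route is a well-known feature.

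AGS and HGC-27 are established human gastric carcinoma lines. In each line, 2 libraries came from cells given a lentivirus for NINJ1 overexpression and 1 from cells given the negative control. NINJ1 is a surface protein that drives rupture of the plasma membrane during lytic cell death. Polyadenylated RNA was collected after 48 h. For the replicate 2 NINJ1 libraries the title and the file name give opposite lines, and the lines used here are those of the file names. EMB, which encodes a chaperone of lactate carriers, had 0 counts in both libraries with an AGS file name and in the AGS control, against 697 and 550 counts in those with an HGC-27 file name and 1249 in the HGC-27 control. With the lines as titled, both NINJ1 pairs hold 1 library of each kind. Nothing in the labels says that the replicates came from separate cultures, so the p-values measure the spread between these libraries. With 1 control per line, that spread comes only from the NINJ1 libraries in the tests within a line. The controls were assumed to vary like them, and no spread between controls was measured.

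The libraries held 12619684 and 13275233 gene counts in AGS NINJ1 cells and 13948290 in the AGS control, and 14482670 and 15045666 in HGC-27 NINJ1 cells and 18175697 in the HGC-27 control. The HGC-27 control stood apart: genes whose longest transcript exceeds 60% GC took 2.31% of its counts, against 9.25% to 11.3% in the other 5 libraries, and 19371 genes had a count in it, against 22839 to 23396. As it is the only control of its line, the virus and whatever sets this library apart cannot be told apart in HGC-27. The main HGC-27 test results are therefore also given after a correction for GC content, except for ALDOA. FPKM levels and marker sums are not corrected. The targeted gene went against the labels in AGS: NINJ1 had 7.81 and 6.29 FPKM in AGS NINJ1 cells, against 10.9 FPKM in the AGS control. It had 6.88 and 7.53 FPKM in HGC-27 NINJ1 cells, against 1.48 FPKM in the HGC-27 control. The longest NINJ1 transcript has 57.2% GC. All tested genes of 55% to 60% GC had a median log2 change of 1.43 (quartiles 0.60 to 2.49) in HGC-27. The higher NINJ1 level there thus cannot be told apart from whatever sets that control apart. As NINJ1 was lower in AGS NINJ1 cells, the AGS comparison is one of libraries labelled NINJ1. Of 5 epithelial markers, KRT8 (48.6 to 82.8 FPKM) and KRT18 (64.6 to 111 FPKM) were abundant, while CDH1 (E-cadherin) and KRT19 were below 0.5 FPKM in every library. The 5 epithelial markers together gave 118 and 116 FPKM in AGS NINJ1 cells against 139 FPKM in the control, and 122 and 145 FPKM in HGC-27 NINJ1 cells against 202 FPKM in the control. The 5 mesenchymal markers, mostly VIM, gave 105 and 116 FPKM in AGS NINJ1 cells against 93.6 FPKM in the control. They gave 70.7 and 64.0 FPKM in HGC-27 NINJ1 cells against 109 FPKM in the control. In AGS, VIM and ZEB1 were higher in both NINJ1 libraries, and CDH2 lay on both sides of the control. FN1 was lower there, at 0.265 and 0.257 FPKM against 0.770 FPKM, and SPARC was at most 0.0156 FPKM. The part of these markers in the results was not tested.

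The promoters of 4 of the genes are shown because SLC2A1, LDHA and SLC16A3 are those that passed the test in both lines, as described further on, and PGK1 is a well-known hypoxia-responsive gene that passed in neither before the GC correction. Each is the RefSeq window on GRCh38.p14 from 250 bases before to 50 bases after the transcript start nearest to the annotated gene start. Capitals mark ACGTG, the letters to which HIF-1 can bind, and its variant GCGTG. Both strands were searched, and a match on the reverse strand appears in the printed strand as CACGT for the first motif, or as CACGC for the variant. MYC can bind CACGTG, which holds the first motif on both strands and so counts as 2 matches.
SLC2A1, chr1:42958819-42959118, minus strand: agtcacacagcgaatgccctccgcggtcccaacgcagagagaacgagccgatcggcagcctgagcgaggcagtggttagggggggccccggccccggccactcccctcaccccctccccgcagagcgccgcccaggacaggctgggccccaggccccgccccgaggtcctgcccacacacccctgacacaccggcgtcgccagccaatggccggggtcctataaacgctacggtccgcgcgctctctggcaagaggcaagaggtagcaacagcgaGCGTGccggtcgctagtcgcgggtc
PGK1, chrX:78103998-78104297, plus strand: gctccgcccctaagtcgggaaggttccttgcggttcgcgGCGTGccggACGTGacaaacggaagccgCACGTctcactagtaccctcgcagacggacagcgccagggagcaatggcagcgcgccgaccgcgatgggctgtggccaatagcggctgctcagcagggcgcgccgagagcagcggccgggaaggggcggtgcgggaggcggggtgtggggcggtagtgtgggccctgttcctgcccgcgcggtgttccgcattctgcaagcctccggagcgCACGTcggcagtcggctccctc
LDHA, chr11:18394313-18394612, plus strand: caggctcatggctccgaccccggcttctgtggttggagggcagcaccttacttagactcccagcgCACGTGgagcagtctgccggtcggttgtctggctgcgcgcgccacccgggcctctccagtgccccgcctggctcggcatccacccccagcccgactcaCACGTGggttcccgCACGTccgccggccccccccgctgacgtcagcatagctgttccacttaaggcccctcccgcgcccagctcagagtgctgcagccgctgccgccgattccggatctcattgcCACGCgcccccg
SLC16A3, chr17:82228185-82228484, plus strand: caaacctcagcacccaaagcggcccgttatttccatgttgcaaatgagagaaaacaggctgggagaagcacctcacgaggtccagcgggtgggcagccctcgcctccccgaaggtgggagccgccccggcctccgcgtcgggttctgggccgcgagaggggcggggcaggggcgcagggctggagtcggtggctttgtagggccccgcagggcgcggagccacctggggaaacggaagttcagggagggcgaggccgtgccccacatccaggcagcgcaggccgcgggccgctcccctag
The LDHA window held 6 matches, including the MYC letters at 2 places, the PGK1 window 4, the SLC2A1 window 1 and this SLC16A3 window 0. All 10 genes had a window in the table, and each had at least 1 window with a match, but 48.4% of all 35116 windows held at least 1 of both motifs, 21.4% held ACGTG and 7.26% the MYC letters. A match describes letters only. In GENCODE 29 on GRCh38 the whole genes span chr1:42925375-42959176 for SLC2A1, chrX:77910739-78129296 for PGK1, chr11:18394388-18408425 for LDHA and chr17:82228397-82261129 for SLC16A3, and the counts and FPKM values cover their exons.

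Most of the route was among the abundant RNAs of both lines. Levels are given in FPKM, fragments scaled by exon length and library total, which allows genes to be set side by side. GAPDH was highest in 5 of the 6 libraries, with 753 and 776 FPKM in AGS NINJ1 cells, 878 in the AGS control, 562 and 560 in HGC-27 NINJ1 cells and 451 in the HGC-27 control. ENO1 came after it in those 5 libraries, with 460 and 490 FPKM in AGS NINJ1 cells, 480 in the AGS control, 351 and 399 in HGC-27 NINJ1 cells and 255 in the HGC-27 control. PGK1 and LDHA took the next places and changed places with each other between libraries. In the HGC-27 control LDHA was the highest of the 10, at 584 FPKM, and GAPDH was next. PKM held place 5 in all 6 libraries, between 162 and 211 FPKM. The entry steps were lower: SLC2A1, HK2 and PFKP lay between 44.7 and 65.7 FPKM in the 5 libraries other than the HGC-27 control, and their order changed from library to library. SLC16A3 held place 9 in every library.

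ALDOA was listed at 0.183 to 0.829 FPKM, from 13 to 47 counts, far below the enzymes before and after it. In GENCODE 29, which holds every gene ID of the tables, 1657 of its 3916 exonic bases, or 42.3%, are shared on the same strand with another gene, AC093512.2, which had 0 to 52 counts. Reads on bases of both genes are given to neither under the usual counting rule, and the rule used here is not given in the sources used here. The ALDOA values are therefore those of the table, not a level of aldolase A RNA. No other of the 10 shared more than 2.48% of its exonic bases on the same strand. On the opposite strand GAPDH shared 14.2% with AC006064.4, which had 0 counts. SLC16A3 shared 5.36% there with CSNK1D, which had 334 to 1274 counts. The strand setting of the counting is not given, so the part of this overlap in the counts was not tested. GAPDH, with 62 listed pseudogenes, lost little to them as counted: their counts were at most 0.115% of the sum of gene and pseudogenes, and those of the 6 LDHA pseudogenes at most 0.208%.

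**Figure D1:**
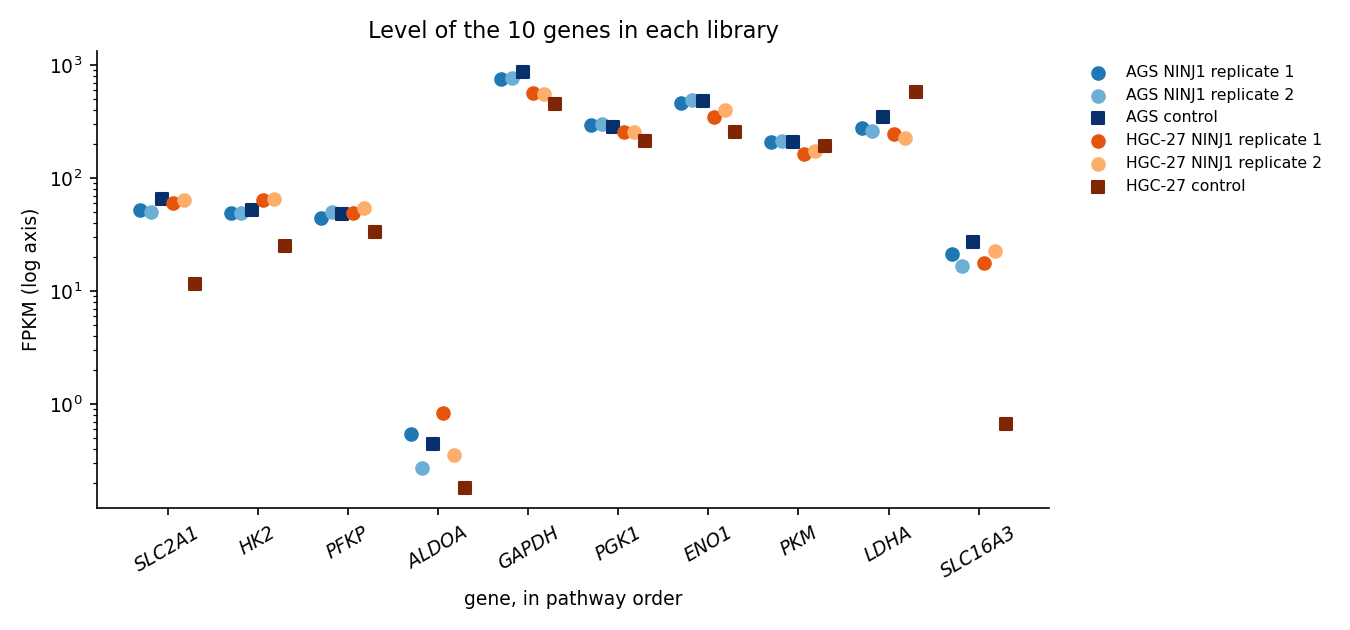
Level of each of the 10 genes (FPKM, log axis) in each of the 6 libraries, with NINJ1 libraries as circles and controls as squares. The HGC-27 control lies apart at SLC16A3 (0.667 FPKM), SLC2A1 (11.5 FPKM) and LDHA (584 FPKM), while GAPDH, ENO1, PGK1 and PKM stay between 162 and 878 FPKM throughout.

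In AGS, the uptake carrier, the lactate-forming enzyme and the lactate exporter were lower in the libraries labelled NINJ1, and the enzymes between them differed less. SLC2A1 had 52.1 and 49.7 FPKM in AGS NINJ1 cells, against 64.7 FPKM in the control. LDHA had 275 and 260 FPKM in AGS NINJ1 cells, against 351 FPKM in the control. SLC16A3 had 21.2 and 16.7 FPKM in AGS NINJ1 cells, against 27.1 FPKM in the control. For each of these 3 genes both NINJ1 libraries lay below the control, as they also did for GAPDH and HK2. The share of all tested genes with this order was not counted, so the order adds nothing to the test below. Genes of the mitochondrial genome took 3.19% and 2.78% of counts in AGS NINJ1 cells, against 5.00% in the AGS control, and 3.75% and 3.39% in HGC-27 NINJ1 cells, against 6.50% in the HGC-27 control, and their part in the results was not tested. Counts were tested with edgeR's quasi-likelihood F test after TMM scaling, which sets libraries level by the trimmed mean of gene ratios, and p was adjusted over all tested genes. SLC2A1 fell by 0.40 on the log2 scale (SE 0.12, adjusted p = 0.0270), or 1.32-fold. LDHA fell by 0.44 (SE 0.12, adjusted p = 0.0103), or 1.36-fold. SLC16A3 fell by 0.57 (SE 0.14, adjusted p = 0.0061), or 1.48-fold. Thus 0 of 10 rose and 3 of 10 fell, where 5.73% of the 17617 tested genes rose and 9.3% fell, and the median log2 change was -0.15 over the 10 genes and 0.00 over all tested genes.

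The other 7 did not pass. GAPDH had 753 and 776 FPKM in AGS NINJ1 cells, against 878 FPKM in the control, with a log2 change of -0.25 (SE 0.12, adjusted p = 0.161), and it passed when either HGC-27 NINJ1 library was left out of the shared fit (adjusted p = 0.015). HK2 had 48.9 and 49.6 FPKM in AGS NINJ1 cells, against 51.9 FPKM in the control. PGK1 had 295 and 301 FPKM in AGS NINJ1 cells, against 281 FPKM in the control. For PFKP, ENO1 and PKM the FPKM value of the AGS control lay between those of both NINJ1 libraries, and their log2 changes were -0.086, -0.07 and -0.05.

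The calls of SLC2A1 and LDHA rested on having both NINJ1 libraries, and that of SLC16A3 on having replicate 2. Without AGS NINJ1 replicate 1, SLC16A3 still fell by 0.74 (adjusted p = 0.00602), while SLC2A1 had an adjusted p of 0.195 and LDHA of 0.113. Without replicate 2, none of the 3 passed: the adjusted p was 0.316 for SLC2A1, 0.226 for LDHA and 0.25 for SLC16A3, whose log2 change was then -0.41. None passed in limma on log2(FPKM + 1), with adjusted p from 0.136 to 0.202, or with the lines as titled, with adjusted p from 0.884 to 0.895. After GC correction the same 3 fell and 0 rose, where 6.88% of tested genes rose and 11.5% fell. LDHA then fell by 0.53, SLC2A1 by 0.39 and SLC16A3 by 0.37.

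**Figure D2:**
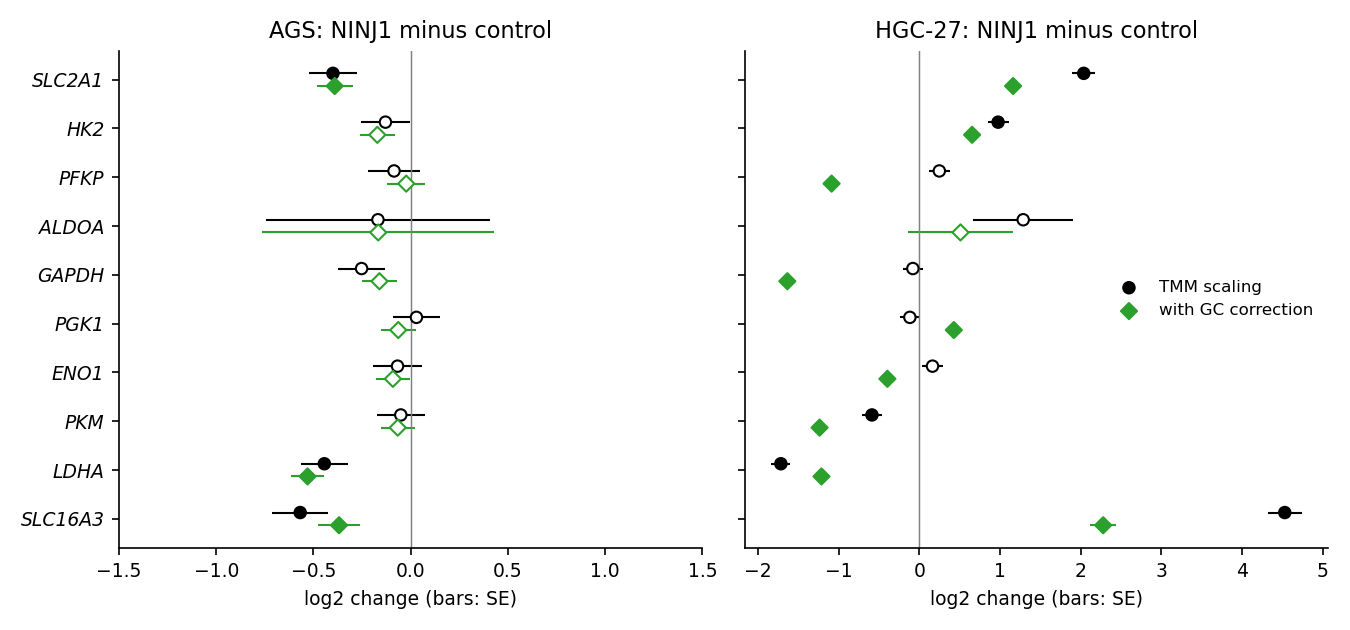
Log2 change, NINJ1 minus control, of the 10 genes in AGS (left) and HGC-27 (right), with bars for 1 SE and axes of different width. Black circles are edgeR with TMM scaling, green diamonds add the GC correction, and filled symbols passed an adjusted p of 0.05. In AGS 9 of the 10 genes lie below 0 before the GC correction and 10 after it, and SLC2A1, LDHA and SLC16A3 passed in both settings. In HGC-27 PFKP, ENO1 and PGK1 change side.

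In HGC-27 the changes were larger and ran in both directions. SLC2A1 had 60.03 and 64.17 FPKM in HGC-27 NINJ1 cells, against 11.5 FPKM in the control. HK2 had 63.8 and 65.7 FPKM in HGC-27 NINJ1 cells, against 25.01 FPKM in the control. SLC16A3 had 17.7 and 22.8 FPKM in HGC-27 NINJ1 cells, against 0.667 FPKM in the control, where it rested on 109 counts. LDHA went the other way, with 244 and 224 FPKM in HGC-27 NINJ1 cells, against 584 FPKM in the control. For all 10 genes the FPKM value of the control lay outside the range of the NINJ1 libraries, so this does not set these 4 apart. The share over all tested genes was not counted. PKM had 162 and 173 FPKM in HGC-27 NINJ1 cells, against 192 FPKM in the control.

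In the edgeR test SLC2A1 rose by 2.04 on the log2 scale (SE 0.14, adjusted p = 4.6e-14), HK2 by 0.98 (SE 0.13, adjusted p = 7.5e-08) and SLC16A3 by 4.53 (SE 0.21, adjusted p = 5.5e-18). LDHA fell by 1.72 (SE 0.12, adjusted p = 2.7e-14) and PKM by 0.59 (SE 0.12, adjusted p = 7.4e-05). These are 3 of 10 that rose and 2 of 10 that fell, where 34.0% of tested genes rose and 29.1% fell, so the count is close to the background. PFKP, ALDOA, GAPDH, PGK1 and ENO1 did not pass, with log2 changes of 0.25, 1.29, -0.08, -0.12 and 0.16. The median over all tested genes was 0.12. With the lines as titled SLC2A1, SLC16A3 and LDHA still passed, while HK2 (adjusted p = 0.165) and PKM (adjusted p = 0.324) did not, and PKM did not pass in limma on log2(FPKM + 1) either (adjusted p = 0.22). FPKM follows the library total and TMM scaling does not, so GAPDH was higher on the FPKM scale, with 562 and 560 FPKM in HGC-27 NINJ1 cells against 451 FPKM in the control, and slightly lower as scaled CPM (counts per library size after TMM), with 1587 and 1596 in HGC-27 NINJ1 cells against 1683 in the control. PGK1 likewise had 254 and 258 FPKM in HGC-27 NINJ1 cells against 211 FPKM in the control, and a scaled CPM of 1325 and 1360 against 1457.

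The change in HGC-27 tracked GC content over the whole transcriptome. Its median was -0.57 (quartiles -1.07 to 0.02) for genes of 40% to 45% GC, the class of PGK1 and LDHA, 0.56 for those of 50% to 55%, which holds SLC2A1, HK2, ALDOA, ENO1 and PKM, 1.43 for those of 55% to 60%, which holds PFKP and GAPDH, and 2.35 (quartiles 1.45 to 3.61) for those of 60% to 65%, the class of SLC16A3. LDHA lay below the lower quartile of its class, and SLC2A1 and SLC16A3 lay above the upper quartile of theirs. GAPDH, PFKP and PKM lay below the lower quartile of theirs. In AGS a weaker trend ran the other way, with a median of 0.16 at 30% to 35% GC and -0.39 at 65% to 70%. There SLC16A3 (-0.57) lay within the quartiles of its class (-0.62 to 0.14). SLC2A1 (-0.40) lay at the lower quartile of its class (-0.40), and LDHA (-0.44) below that of its class (-0.24).

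**Figure D3:**
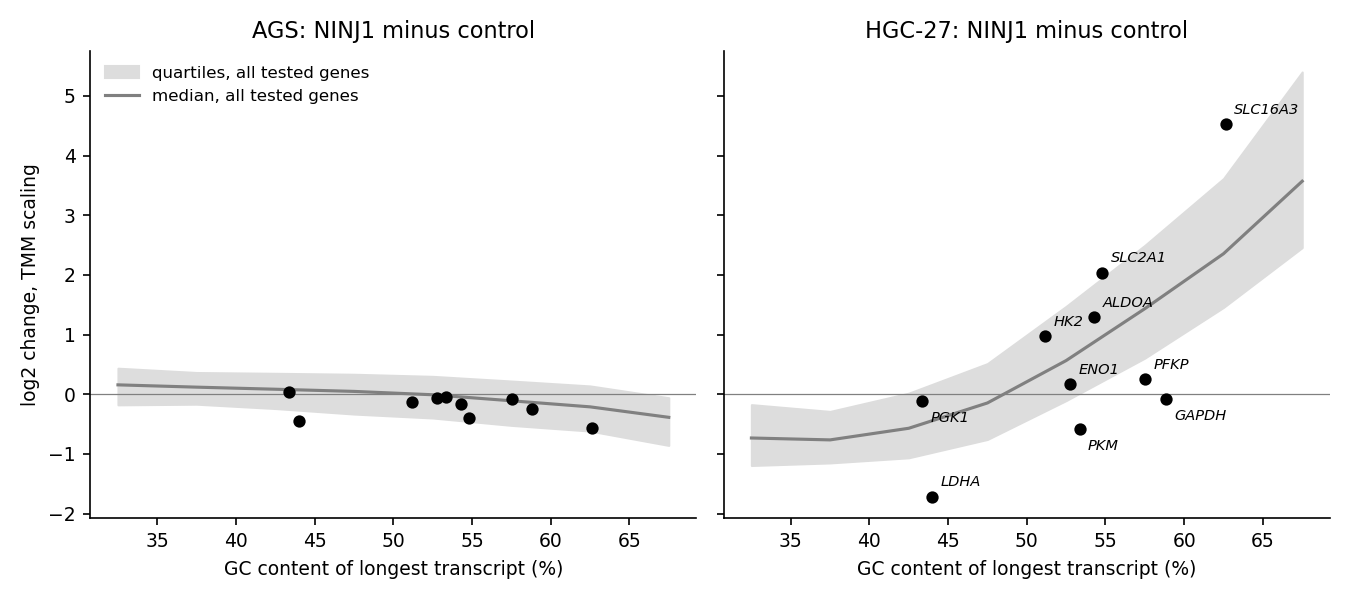
Log2 change, NINJ1 minus control, against the GC content of the longest transcript in AGS (left) and HGC-27 (right). Points are the 10 genes, and the line and band are the median and quartiles of all tested genes in classes of 5 percentage points. In HGC-27 the median runs from -0.73 at 30% to 35% GC to 3.57 at 65% to 70%, with LDHA below the band and SLC16A3 above it.

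After GC correction SLC16A3, SLC2A1, HK2 and LDHA kept their direction at a smaller size, and PFKP, ENO1 and PGK1 turned. SLC16A3 rose by 2.28 (SE 0.16, edgeR adjusted p = 7.7e-11), SLC2A1 by 1.16 (SE 0.10, adjusted p = 2.1e-09) and HK2 by 0.65 (SE 0.09, adjusted p = 4.1e-06), and LDHA fell by 1.21 (SE 0.08, adjusted p = 4.8e-11). PGK1 then rose by 0.43. GAPDH fell by 1.64, PKM by 1.24, PFKP by 1.09 and ENO1 by 0.40. That made 4 of 10 higher and 5 of 10 lower, against 24.5% of tested genes higher and 24.5% lower. The direction of PFKP, ENO1 and PGK1 thus depended on the correction, and GAPDH and PGK1 also changed sign in limma on log2(FPKM + 1), at 0.32 and 0.28, neither passing.

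Pairs of members with nearly the same GC content were also set side by side as ratios of FPKM values, chosen after the values were seen. LDHA (44.0% GC) to PGK1 (43.3%) was 0.960 and 0.870 in HGC-27 NINJ1 cells, against 2.77 in the control. It was 0.932 and 0.863 in AGS NINJ1 cells, against 1.25 in the control, so LDHA was lower relative to PGK1 in the NINJ1 libraries of both lines. SLC2A1 (54.8%) to PKM (53.3%) was 0.370 and 0.371 in HGC-27 NINJ1 cells, against 0.0600 in the control. It was 0.251 and 0.236 in AGS NINJ1 cells, against 0.310 in the control, the opposite side. HK2 (51.2%) to ENO1 (52.7%) was 0.182 and 0.165 in HGC-27 NINJ1 cells, against 0.0982 in the control, and 0.106 and 0.101 in AGS NINJ1 cells, against 0.108 in the control. PFKP (57.5%) to GAPDH (58.8%) was 0.0867 and 0.0979 in HGC-27 NINJ1 cells, against 0.0735 in the control. In AGS NINJ1 cells this ratio was 0.0593 and 0.0647, against 0.0553 in the control, the same side. A ratio shows unequal change of its 2 genes, not which of them changed, and each line has 1 control.

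**Figure D4:**
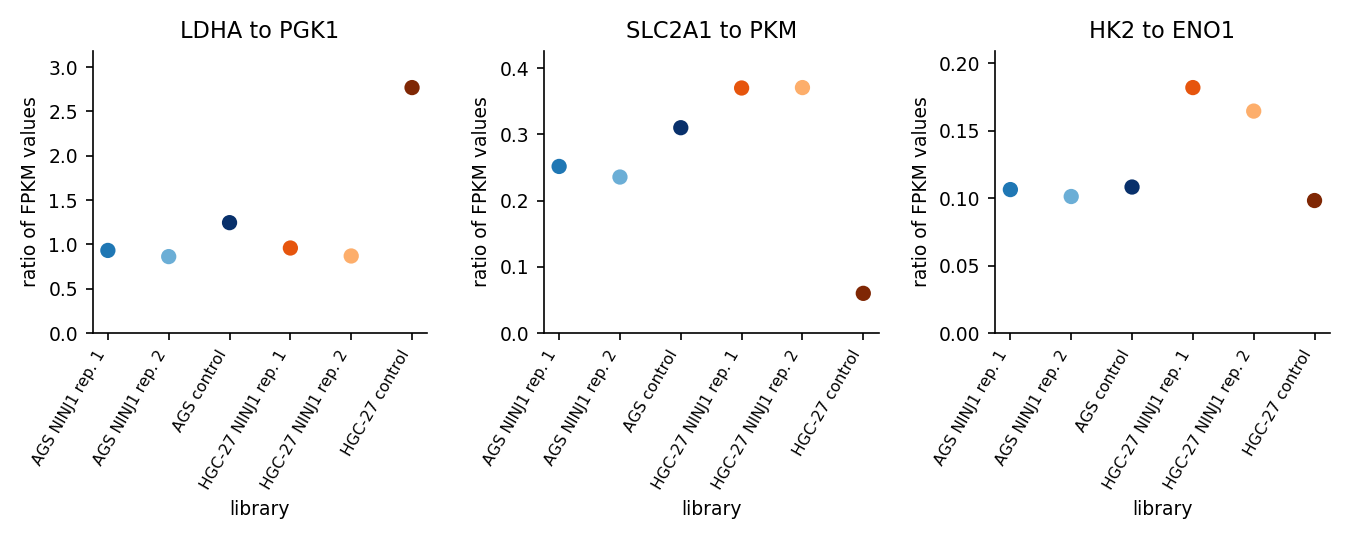
Ratio of FPKM values within each library for LDHA to PGK1, SLC2A1 to PKM and HK2 to ENO1 (linear axes from 0), each a pair of similar GC content. The HGC-27 control is the highest point for LDHA to PGK1 (2.77) and the lowest for SLC2A1 to PKM (0.0600).

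The difference of the changes, AGS minus HGC-27, passed for 5 of the 10 genes. It was -5.10 for SLC16A3 (SE 0.25), -2.44 for SLC2A1 (SE 0.19) and -1.11 for HK2 (SE 0.18), and 1.27 for LDHA (SE 0.17) and 0.54 for PKM (SE 0.17), with edgeR adjusted p from 6.9e-17 to 0.0093. So 2 of 10 were higher and 3 of 10 lower, where 23.9% of tested genes were higher and 30.2% lower, and the median over all tested genes was -0.15. The PKM difference did not pass without AGS NINJ1 replicate 1 (adjusted p = 0.055) or replicate 2 (adjusted p = 0.083). After GC correction 4 were higher and 4 lower, against 16.4% and 18.7% of tested genes. SLC16A3 stood at -2.65, SLC2A1 at -1.55, HK2 at -0.83 and LDHA at 0.68, while GAPDH (1.48), PFKP (1.07) and PGK1 (-0.49) passed with the sign opposite to that before the correction. With the lines as titled 0 of the 10 passed.

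Fitted over both lines with line as a term, 0 of the 10 genes passed in edgeR, where 0.0% of the 17617 tested genes were called in either direction. At an unadjusted p under 0.05 there were 2257 genes, of which 1 was among the 10, LDHA, with a log2 change of -1.13 (SE 0.32, adjusted p = 0.368). After GC correction edgeR again called 0 of the 10, while 55 of the 17617 tested genes rose and 308 fell. At an unadjusted p under 0.05 there were then 4054 genes, of which 4 were among the 10. DESeq2 and limma also called 0 of the 10. LDHA was the only gene of the 10 that passed in the same direction in both lines. Leaving out either control turns this fit into the comparison within the other line, so it gives no further value over both lines.

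Between the NINJ1 libraries of the lines, which leaves both controls aside, the members differed by less than 1.5-fold. GAPDH had 753 and 776 FPKM in AGS cells, against 562 and 560 FPKM in HGC-27 cells, and was higher by 0.44 on the log2 scale (SE 0.10, edgeR adjusted p = 0.00049). ENO1 had 460 and 490 FPKM in AGS cells, against 351 and 399 FPKM in HGC-27 cells, and was higher by 0.34 (SE 0.10, adjusted p = 0.0085). PKM had 207 and 211 FPKM in AGS cells, against 162 and 173 FPKM in HGC-27 cells, and was higher by 0.31 (SE 0.10, adjusted p = 0.0117). HK2 and SLC2A1 went the other way. HK2 had 48.9 and 49.6 FPKM in AGS cells, against 63.8 and 65.7 FPKM in HGC-27 cells, a log2 difference of -0.40 (SE 0.10, adjusted p = 0.0020). SLC2A1 had 52.1 and 49.7 FPKM in AGS cells, against 60.03 and 64.17 FPKM in HGC-27 cells, a log2 difference of -0.29 (SE 0.10, adjusted p = 0.0238). The FPKM values of the lines did not overlap for these 5 genes. The 5 were picked by the test of the same libraries, so this adds nothing to it, and the share over all tested genes was not counted. LDHA, PGK1, PFKP, ALDOA and SLC16A3 did not pass, at 0.19, 0.22, -0.13, -0.54 and -0.10.

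That is 3 of 10 higher and 2 of 10 lower, against 20.2% and 20.0% of tested genes, and the GC correction called the same 5 in the same directions. Fewer of the 10 passed when either AGS NINJ1 library was left out, and more when HGC-27 NINJ1 replicate 1 was. Such fits have 1 NINJ1 library in a line, and the share of all tested genes that passed in them was not counted. With the lines as titled 0 passed. The 4 libraries with no conflict are 1 NINJ1 library and 1 control of each line, so a line difference over them takes in both controls and is another comparison. SLC16A3 alone passed there, at 2.59 (adjusted p = 0.049), with 27.1 FPKM in the AGS control against 0.667 FPKM in the HGC-27 control, and 21.2 FPKM in AGS NINJ1 replicate 1 against 17.7 FPKM in HGC-27 NINJ1 replicate 1.

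The rest of the pathway was described by 8 lists of 84 genes, of which 70 passed the filter on low counts. In AGS NINJ1 cells 1 of the 70 rose and 18 fell, where 5.73% of all tested genes rose and 9.3% fell. Among the sister enzymes of glycolysis 6 of 13 fell and 0 rose: ENO3, the muscle enolase, fell by 1.37 (SE 0.14), PFKL, the liver phosphofructokinase, by 0.71 (SE 0.13), and ALDOC, an aldolase, by 0.81 (SE 0.17). In the pentose phosphate pathway TKT, a transketolase, fell by 0.56. Of the genes for pyruvate entry to mitochondria PC (pyruvate carboxylase) fell by 1.38 and PDK4, which inhibits pyruvate dehydrogenase, by 0.63, and 13 did not pass. Of the genes of glucose storage and synthesis PCK1, a key enzyme of glucose synthesis, fell by 3.88, with 38 and 9 counts in AGS NINJ1 cells against 361 in the control, and PCK2 fell by 0.53 and PGM1 by 0.46. BSG, the chaperone that carries SLC16A3 to the surface, fell by 0.35 (adjusted p = 0.0455), but did not pass after GC correction (log2 change -0.19, adjusted p = 0.202), while SLC16A1 (MCT1), the other main lactate carrier, had 61.8 and 60.2 FPKM in AGS NINJ1 cells, against 49.4 FPKM in the control, and did not pass. PFKFB4, which sets the level of the activator of phosphofructokinase, fell by 0.54, and SLC2A4 (GLUT4) by 1.64, with 20 and 22 counts in AGS NINJ1 cells against 68 in the control. Among 12 regulators TXNIP, which restrains glucose uptake, fell by 1.05, EGLN3, an oxygen sensor, by 0.91, and HIF1AN, which inhibits HIF, rose by 0.47. The median over the 70 genes was -0.18, against 0.00 over all tested genes.

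In HGC-27 NINJ1 cells 28 of the 70 rose and 21 fell, and after GC correction 17 rose and 28 fell, so the balance depended on the correction. Of all tested genes 34.0% rose and 29.1% fell before it, and 24.5% rose and 24.5% fell after it. Among the sister enzymes 7 of 13 rose and 2 fell before it, and 1 rose and 7 fell after it. ENO2, the neuronal enolase, rose by 2.77 before the correction and 1.86 after it, and LDHB, the subunit that favours pyruvate formation, fell by 3.38 before it and 3.09 after it. LDHB had 0.926 and 1.23 FPKM in HGC-27 NINJ1 cells, against 8.56 FPKM in the control, so that LDHA outnumbered it 263-fold and 183-fold in NINJ1 cells and 68.3-fold in the control. PFKL turned, at 1.08 before the correction and -1.42 after it. Of 15 genes for pyruvate entry to mitochondria 9 fell and 2 rose before it, and 8 fell and 2 rose after it: MPC2 fell by 1.95 and MPC1 by 1.79, both parts of the mitochondrial pyruvate carrier, and PDK3 by 1.41, and all 3 also fell after the correction, by 1.34, 1.28 and 0.87. Of the lactate transport genes BSG rose by 2.10 before the correction only, and SLC16A7 (MCT2) and EMB fell by 1.08 and 1.10 before it and by 0.38 and 0.36 after it. The pentose phosphate genes stood at 2 higher and 1 lower of 7 before it, and at 1 higher and 5 lower after it. Among the regulators MYC rose by 1.64 and MLXIPL, a carbohydrate-responsive factor, by 4.13, and HIF1A fell by 1.26; after the correction these were 0.91, 1.74 and -0.53, and each passed. PFKFB3 and PFKFB4 rose by 1.56 and 1.60 before it and by 0.54 and 0.39 after it. Of the other glucose transporters SLC2A8 rose by 3.34 before it and 1.10 after it. Of the genes of glucose storage and synthesis 5 of 9 rose and 3 fell before it, and 3 rose and 3 fell after it, with PCK2 at 2.91 and 0.87.

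**Figure D5:**
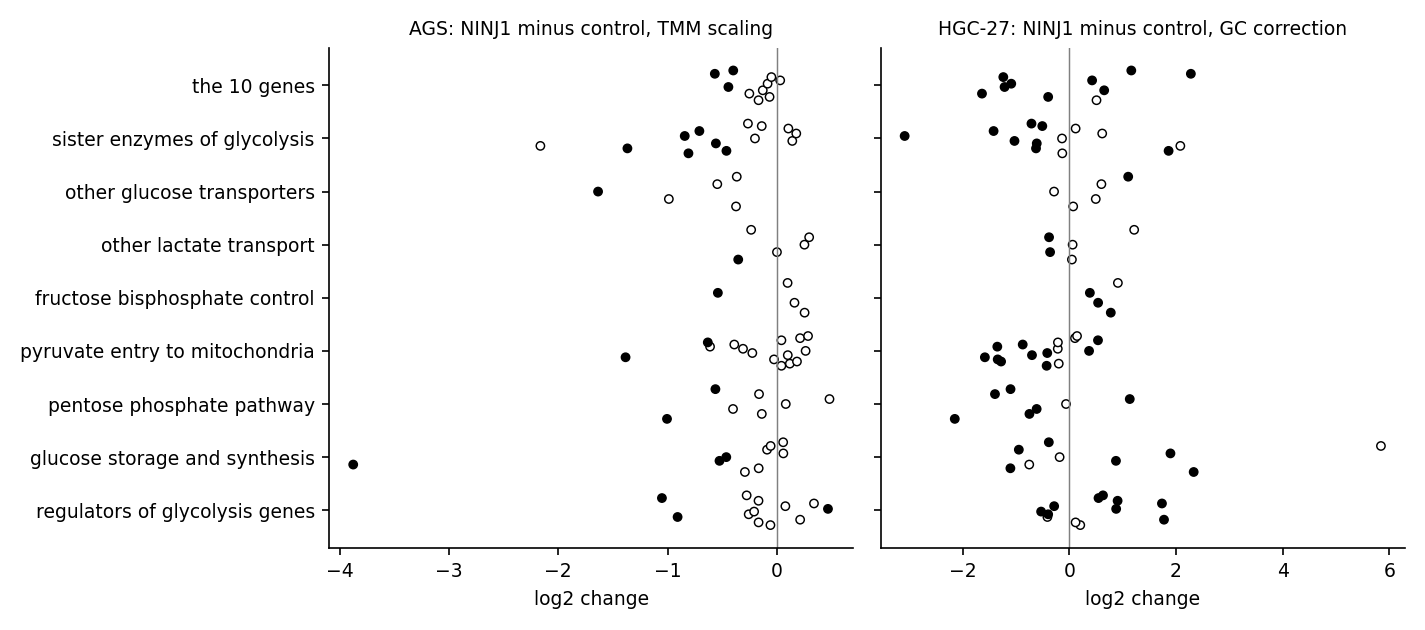
Log2 change, NINJ1 minus control, of the 10 genes and of the tested genes of the 8 pathway lists, in AGS with TMM scaling (left) and in HGC-27 with GC correction (right); filled points passed an adjusted p of 0.05, and the axes differ in width. In AGS, 18 of the 19 pathway genes that passed lie below 0, and in HGC-27 17 lie above and 28 below.

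Between the NINJ1 libraries of the lines 20 of the 70 pathway genes were higher in AGS and 19 lower, where 20.2% of all tested genes were higher and 20.0% lower. SLC2A3 (GLUT3), a carrier of high affinity, had 0.206 and 0.159 FPKM in AGS cells, against 2.80 and 3.46 FPKM in HGC-27 cells, a log2 difference of -4.10 (SE 0.26). In both lines it stayed far below SLC2A1. HK1, the housekeeping hexokinase, was higher in AGS by 0.69 (SE 0.11), opposite to HK2, and TPI1, the triose phosphate isomerase, by 0.59. PDK4 was higher by 2.33 and PYGB, the brain glycogen phosphorylase, by 3.12. The pentose phosphate genes PGD and TKT were lower in AGS, at -0.72 and -0.70, as were TXNIP (-1.49) and MYC (-0.59), while EGLN3 was higher by 1.76.

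Across the 6 libraries, the mean standardised profile of the 10 genes ran from -0.0051 to 0.54 in 5 libraries and stood at -1.21 in the HGC-27 control. The 5 other genes of at least 10 FPKM on average with the most similar profile among 4741 were TRIM65, PCK2, ILVBL, CDC42EP4 and SIVA1, with Pearson correlations of 0.998 to 1.000 over the 6 libraries. All 5 were lowest in the HGC-27 control (TRIM65 at 4.31 FPKM there, against 14.3 to 22.9 FPKM elsewhere), so these values describe mainly that library.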

How the data were processed

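Polyadenylated RNA of 6 libraries was sequenced. The submitters' processing notes name HISAT2 (an aligner), HTSeq 0.13.5 (a read counter) and the build GRCh38; the annotation release, strand setting and overlap rule are not given in the sources used here. The deposited tables hold raw counts and FPKM values per gene, which the authors computed. For genes with at least 200 counts, FPKM followed from count, length and library total within a relative 8.32e-09. Of the 51103 gene IDs all were found in GENCODE 29, which gave coordinates, exon overlap and GC content. The counts were tested in edgeR 4.0.16 (R 4.3.3; minimum count 10, TMM, quasi-likelihood, 4 group means, 17617 genes, Benjamini-Hochberg threshold 0.05), and the standard error was the log2 change over the root of F. The fit was checked on simulated counts, drawn for all libraries with the spread that the fit had estimated and without a GC shift. That check therefore cannot speak to the single control of each line or to the GC content of the HGC-27 control. The GC correction was a loess (span 0.3) of each library's log CPM deviation on GC content, used as an offset. Alternatives were DESeq2 1.42.0, its size factors, no filter, limma 3.58.1 on log2(FPKM + 1) and log2(FPKM + 0.1), each library left out, a replicate block, the lines as titled, and the 4 libraries with no conflict. The 10 genes were always named; of every other list up to 3 genes with the smallest p among those that passed, partners of a member besides, and the 5 genes of most similar profile. The FPKM ratios and EMB as a check of the lines were chosen after their values were seen. Values of 1 listed gene are not reported here. The 10 genes and the lists were chosen with earlier results of these data known. Depth was 12619684 to 18175697 counts per library.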

Additional observations from a re-analysis of the deposited data

Results flagged for a closer look

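For 5 of the 10 genes the change, NINJ1 minus control, differed between the lines by a test of the difference itself, AGS minus HGC-27, in edgeR. The difference was -5.10 for SLC16A3, -2.44 for SLC2A1 and -1.11 for HK2, which were higher in HGC-27 NINJ1 cells than in their control. It was 1.27 for LDHA, which was lower than control in both lines and more so in HGC-27, and 0.54 for PKM. After GC correction the same 5 passed at -2.65, -1.55, -0.83, 0.68 and 1.17. Before the correction the count is no more than the background, since 23.9% of all tested genes were higher and 30.2% lower in this test. After it 4 of the 10 were higher and 4 lower, against 16.4% and 18.7% of tested genes. GAPDH, PFKP and PGK1 passed only then, with the sign opposite to that before the correction. All of these differences rest on the HGC-27 control library, in which genes above 60% GC took 2.31% of the counts, and on the lines of the file names.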

How the results depend on the processing

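Of 547 values of single genes under alternative settings, 428 kept their direction and their side of the threshold, 51 no longer passed, 26 newly passed and 42 changed sign. Counts of the 10 genes that passed were 3 in AGS, 5 in HGC-27, 5 for the difference between lines, 0 over both lines and 5 between lines. With the lines as titled they were 0, 3, 0, 0 and 0. With GC correction HGC-27 had 9 and the difference 8. In limma with a pseudocount of 1 and of 0.1, AGS had 0 and 0, and the line comparison 2 and 1. The line comparison had 1 in the 4 libraries with no conflict and 0 with all 6 libraries and a treatment term. With 1 library left out the counts changed in each comparison, and over both lines a fit without a control is a within-line comparison. A lone library was then assumed to vary like the others. The shares over all tested genes were not counted in these fits, so the counts are not given. The replicate numbers gave a correlation of 0.0655 between lines over 11302 genes, so they were not taken as pairs; with a replicate block the counts were 3, 5, 5, 0 and 6. The 4-library setting leaves no spread within a group, so it was run only for both lines and for the line comparison.

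Values that changed sign were these. With GC correction: in HGC-27 ENO1 -0.40, PFKP -1.09 and PGK1 0.43; in the difference ENO1 0.30, GAPDH 1.48, PFKP 1.07 and PGK1 -0.49; in AGS PGK1 -0.064; between lines SLC16A3 0.053. In limma with a pseudocount of 1 and of 0.1: in HGC-27 GAPDH 0.32 and 0.32 and PGK1 0.28 and 0.28, in the difference PGK1 -0.19 and -0.20, and in AGS PKM 0.0026 and 0.0027. With the lines as titled: in AGS HK2 0.090 and PGK1 -0.079, in HGC-27 GAPDH 0.17, in the difference PGK1 -0.078, and between lines GAPDH -0.033, HK2 0.014, LDHA -0.016, PFKP 0.0050, PGK1 -0.0092, SLC16A3 0.35 and SLC2A1 0.083. The next values take in both controls, so they compare other samples than the NINJ1 libraries alone: in the 4 libraries with no conflict, ALDOA 0.13, HK2 0.16, LDHA -0.46, PFKP 0.033, SLC16A3 2.59 and SLC2A1 0.96; with all 6 libraries and a treatment term, LDHA -0.23, SLC16A3 1.22 and SLC2A1 0.48. With 1 library left out, PFKP in AGS ran from -0.18 to 0.0072, ALDOA in AGS from -0.74 to 0.25, and between lines ALDOA from -1.12 to 0.17 and SLC16A3 from -0.28 to 0.10. The cause was not tested. Depth limits ALDOA and, in the HGC-27 control, SLC16A3 at 109 counts.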
